A study of Mus musculus with 16 samples.

Results

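The 12S and 16S ribosomal RNAs of the mitochondrion, the products of mt-Rnr1 (ENSMUSG00000064337) and mt-Rnr2 (ENSMUSG00000064339), were followed through 16 libraries of mouse testis RNA. These 2 genes were taken by name from the 35920 Ensembl genes of the deposited table, by a rule that uses no measured value. The table held 37 mitochondrially encoded genes in all, the other members being 13 mRNAs and 22 tRNAs. Testis RNA was incubated with J2, a mouse IgG2a monoclonal antibody that binds double-stranded RNA, and both the RNA it captured (J2) and the RNA it left behind (flow-through) were sequenced. The labels describe the flow-through as depleted of rRNA and of double-stranded RNA, and whether that depletion reached the mitochondrial rRNAs is not given in the sources used here.

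Testes of 3 conditions were sampled, each in both fractions. Dicer knock-out testes, genotype Dcr-/-, came from mice at postnatal day 18 (P18) and gave 3 J2 and 3 flow-through libraries. Adult wild-type testes gave 2 J2 and 2 flow-through libraries. Wild-type testes at P18 gave 3 J2 and 3 flow-through libraries. Both P18 groups were on the C57BL/6 x 129S4/SvJae background. The strain of the adults is labelled unknown, so age and strain cannot be told apart. The labels name no Cre driver, promoter or cell type for the Dicer deletion, and do not say whether libraries of a group came from separate animals, so p-values measure the spread between these libraries, which may be technical.

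Both mitochondrial strands are transcribed as long polycistronic RNAs, which are cut mainly at the tRNAs that lie between the other genes. The heavy-strand transcript carries both rRNAs close to its start, and the light-strand transcript runs antisense to most of them, so that opposite strands can pair. The 12S rRNA forms the core of the small subunit of the mitochondrial ribosome and the 16S rRNA that of the large subunit, and together they are usually the most abundant mitochondrial transcripts. Unpaired antisense RNA is normally removed by the degradosome of SUV3 and PNPase, and mitochondrial double-stranded RNA is a known ligand of J2 in human cells. On GRCm38.p6, the RefSeq build that corresponds to mm10, mt-Rnr1 covers bases 70 to 1024 of chromosome MT (955 bases) and mt-Rnr2 bases 1094 to 2675 (1582 bases), both on the heavy-strand transcript and neither coding for protein. The valine tRNA gene mt-Tv lies between them, the phenylalanine tRNA gene mt-Tf precedes them at the start of the map, and mt-Tl1, a leucine tRNA gene, and mt-Nd1 follow.

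Values are the authors' normalized counts per gene, here called units. Library totals lay between 445600 and 823730 units in J2 and between 6053864 and 34859647 units in flow-through. The value of 1 read, estimated from the low values, was about 0.116 to 0.516 units in J2 and 2.005 to 8.31 units in flow-through. On that estimate 12S rested on about 3510 to 57101 reads in J2 and 6225 to 35758 in flow-through, and 16S on about 3975 to 231967 reads in J2 and 9098 to 62547 in flow-through. The 13 mRNAs together rested on as few as about 520 reads in a flow-through library. Germ cell markers (9 genes, all in the table) summed to between 193 and 2311 units in every library. Epididymis markers (3 genes) summed to 11.7 to 62.3 units in adult libraries, against at most 4.44 units in the P18 libraries. Their part in the adult results was not tested. Blood markers (5 genes) summed to 5.08 to 17.0 units in adult libraries, against 78.1 to 445 units in the P18 libraries. Dicer1 was at 3.39, 0 and 0 units in knock-out J2, against 11.3, 0 and 8.64 units in wild-type J2, and at 0, 3.68 and 8.33 units in knock-out flow-through, against 5.10, 12.4 and 0 units in wild-type flow-through. At these levels Dicer1 does not check the genotype labels.

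One library stood apart. Adult J2 replicate 2 held 6614 units of 12S and 26870 units of 16S, which were 3.65 and 11.1 times the highest value in the other 7 J2 libraries. Its mitochondrial mRNA sum, 23409 units, was 6.17 times the highest of the others. The 2 rRNAs took 6.37% of its total, against 0.325 to 0.709% in the other J2 libraries. In it, 4237 genes lay on whole multiples of the estimated value of 1 read, against 49 to 84 genes in the other J2 libraries. The cause of these differences was not tested, and the adult results that change with this library are also given without it.

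The make-up of the mitochondrial signal differed between the fractions. In J2 the summed units of the 12S and 16S rRNAs were of the same size as those of the 13 mitochondrial mRNAs, and in flow-through they were more than 10 times higher. That likeness in J2 rested on mt-Co1, the catalytic subunit of cytochrome c oxidase, which was the highest mRNA in all 8 J2 libraries and held 51.8 to 75.1% of their mRNA sum. Because both sums come from the same library, a scaling factor shared by all its genes cancels from their ratio. A factor that differs between genes would remain, which was not tested. The ratio was 0.888, 1.65 and 1.12 in knock-out J2, against 33.5, 28.3 and 28.6 in knock-out flow-through. In adult testis it was 1.29 and 1.43 in J2, against 56.3 and 10.2 in flow-through. In wild-type P18 testis it was 2.15, 1.36 and 0.638 in J2, against 30.04, 22.7 and 25.2 in flow-through. The highest J2 value, 2.15, lay below the lowest flow-through value, 10.2, so the fractions did not overlap in any condition.

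Over all conditions the rRNA to mRNA ratio was 21.1-fold lower in J2 (log2 difference -4.40). An exact two-sided permutation test with labels exchanged within conditions gave p = 0.000833, the smallest its 2400 arrangements can give. The ratio was lower in J2 in 8 of 8 pairs of libraries that share a code in the table's header. Since the fractions did not overlap, any pairing would give that count, so it adds nothing to the test. By condition it was 25.5-fold lower in knock-out testis (log2 difference -4.67), 17.6-fold lower in adult testis (-4.14) and 20.9-fold lower in wild-type P18 testis (-4.39). Each P18 comparison of 3 against 3 libraries had an exact permutation p = 0.1, the smallest possible, and the adult libraries were too few for a test. The adult value moved with the flow-through libraries, to 7.50-fold without replicate 1 and 41.4-fold without replicate 2. With the P18 conditions alone, an alternative chosen after seeing the data, the log2 difference was -4.53 (exact permutation p = 0.005, the smallest of 400 arrangements).

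Without the highest mRNA of each library the ratio was 1.88 to 5.74 in J2 and 12.9 to 83.9 in flow-through, still with no overlap. The difference over all conditions was then smaller, 10.7-fold (log2 difference -3.41, exact permutation p = 0.000833). It was 15.0-fold in knock-out, 7.07-fold in adult and 11.4-fold in wild-type P18 testis. In flow-through the highest mRNA was mt-Nd1 in 7 of 8 libraries and mt-Co1 in knock-out replicate 1. Per kilobase of gene, and with all 13 mRNAs, the ratio of the rRNA level to the mRNA level was 2.87 to 9.67 in J2 and 45.8 to 253 in flow-through.

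**Figure D1:**
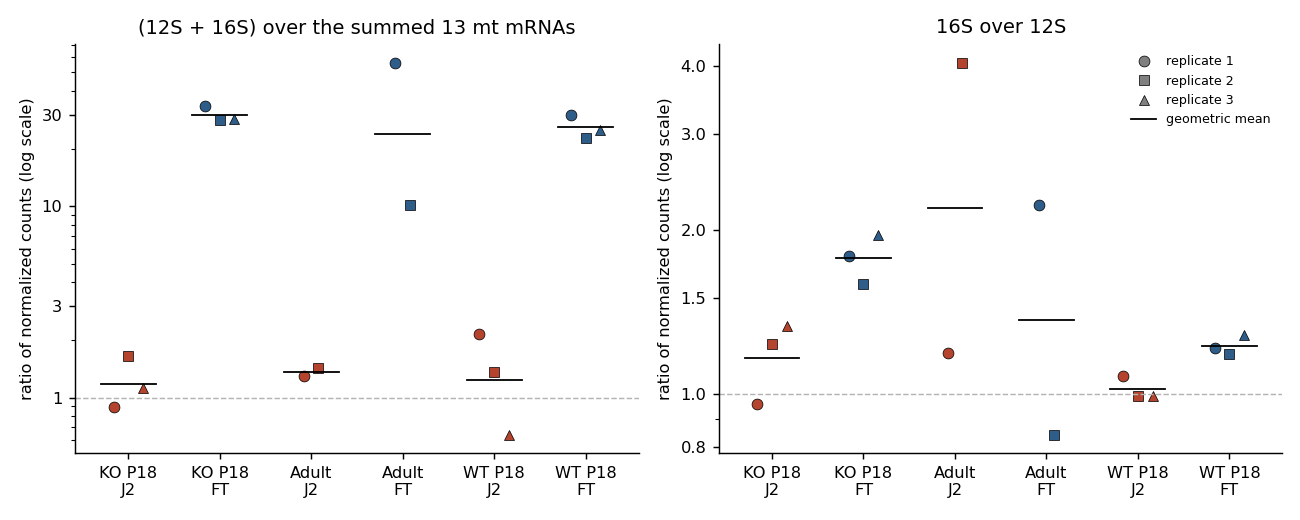
Ratios of normalized counts within each library, on log axes, for J2 (red) and flow-through (FT, blue) libraries of Dicer knock-out (KO) P18, adult and wild-type (WT) P18 testis. Left, the rRNA to mRNA ratio lies between 0.638 and 2.15 in the 8 J2 libraries and between 10.2 and 56.3 in the 8 flow-through libraries. Right, the 16S to 12S ratio, with adult J2 replicate 2 at 4.06. Symbols are replicates and lines are geometric means.

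Expressed as a share of the whole mitochondrial signal, the 2 rRNAs made up a median of 56.6% in J2 libraries (lowest 38.9%, highest 67.8%) and a median of 96.6% in flow-through libraries (91.1% to 98.2%). The 12S rRNA alone was 11.6 to 32.6% in J2, against 30.5 to 49.4% in flow-through. The 16S rRNA alone was 19.4 to 47.2% in J2, against 41.6 to 67.8% in flow-through. In adult J2 replicate 2 the rRNA share was 58.8%, inside the range of the other J2 libraries, although its 12S share was the lowest and its 16S share the highest of that fraction. The 22 tRNAs summed to at most 58.9 units in any library.

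**Figure D2:**
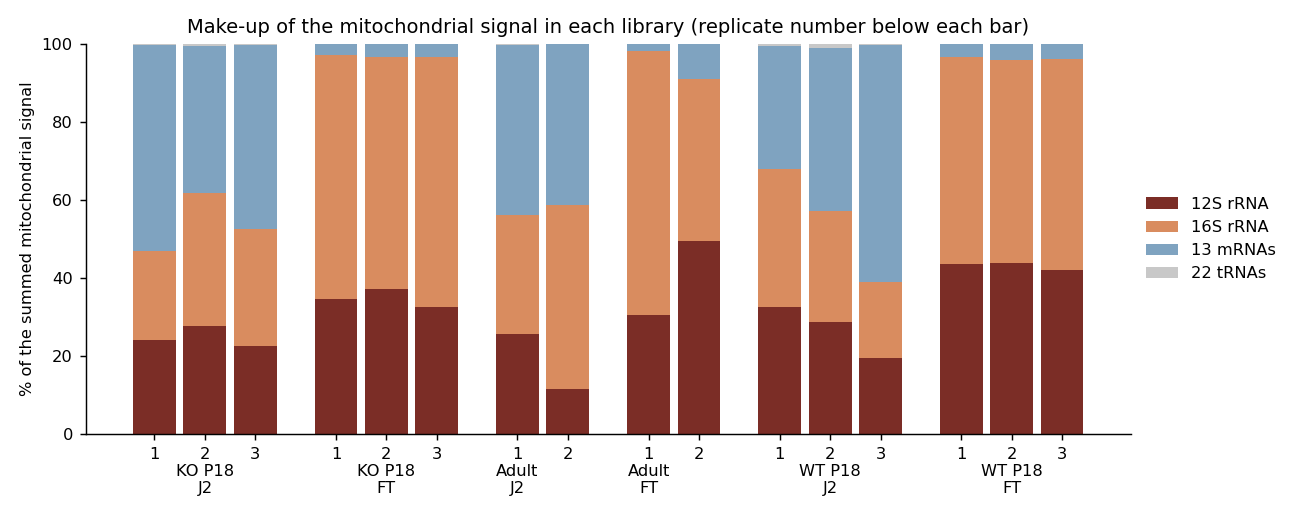
Percent of the summed mitochondrial signal taken by 12S rRNA, 16S rRNA, the 13 mRNAs and the 22 tRNAs, 1 bar per library, for Dicer knock-out (KO) P18, adult and wild-type (WT) P18 testis in J2 and flow-through (FT). The rRNAs fill 38.9 to 67.8% of the J2 bars and 91.1 to 98.2% of the flow-through bars.

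As normalized by the authors, both rRNAs were lower in J2 than in flow-through in each condition. Rescaling to a common total turned the adult differences round, and quantile normalization turned the adult and knock-out differences round. The rescaled adult differences were not refitted without J2 replicate 2, the library that stood apart. The 12S rRNA stood at 1568, 1806 and 1812 units in knock-out J2, against 50455, 72940 and 88023 units in knock-out flow-through. It stood at 1630 and 6614 units in adult J2, against 46990 and 47724 units in adult flow-through. It stood at 1565, 1587 and 941 units in wild-type P18 J2, against 44566, 71685 and 61179 units in wild-type P18 flow-through. All J2 libraries were below all flow-through libraries, and apart from adult replicate 2 the J2 libraries lay within 941 to 1812 units.

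The 16S rRNA followed the same order of fractions. It was at 1502, 2237 and 2416 units in knock-out J2, against 90695, 116461 and 172903 units in knock-out flow-through. It was at 1937 and 26870 units in adult J2, against 104451 and 40211 units in adult flow-through. It was at 1692, 1574 and 934 units in wild-type P18 J2, against 54213, 85041 and 78615 units in wild-type P18 flow-through. The fractions did not overlap, and the narrowest gap lay in adult testis, between J2 replicate 2 and flow-through replicate 2.

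**Figure D3:**
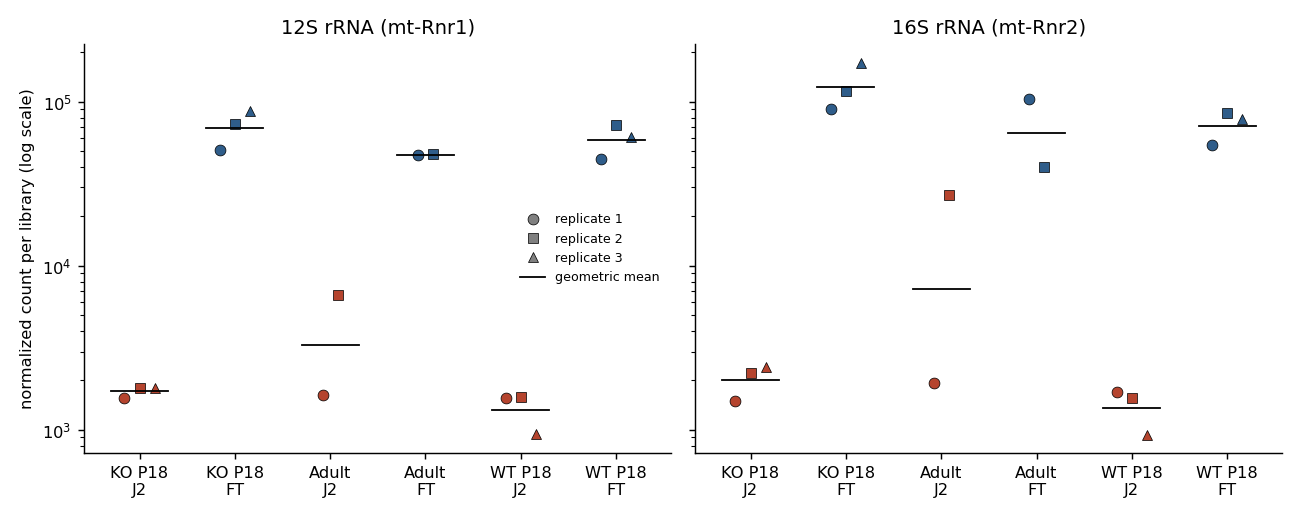
Normalized counts of 12S (mt-Rnr1) and 16S (mt-Rnr2) rRNA in each library on a log axis, for Dicer knock-out (KO) P18, adult and wild-type (WT) P18 testis, J2 in red and flow-through (FT) in blue. Symbols are replicates and lines are geometric means. The J2 libraries lie between 941 and 6614 units for 12S and between 934 and 26870 units for 16S, below all flow-through libraries.

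In knock-out testis the log2 difference, J2 minus flow-through on log2(units + 1), was -5.31 for 12S (SE 0.48, limma adjusted p = 8.8e-07) and -5.93 for 16S (SE 0.67, limma adjusted p = 3.1e-05). In wild-type P18 testis it was -5.45 for 12S (SE 0.48, limma adjusted p = 6.4e-07) and -5.72 for 16S (SE 0.67, limma adjusted p = 5.3e-05). In adult testis it was -3.85 for 12S (SE 0.59, limma adjusted p = 0.0021) and -3.17 for 16S, which did not pass (SE 0.82, limma adjusted p = 0.19). Of the 9526 genes tested, 0.189% were called lower in J2 in knock-out, 0.168% in adult and 0.378% in wild-type P18 testis. Genes with all J2 libraries below all flow-through libraries made up 11.1%, 17.3% and 8.3% in the same order, so lack of overlap alone was common. The median over all genes tested was -0.15, 0.05 and -0.05 in that order.

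Group means show the size of the difference in units, under the authors' scaling. Means of 12S were 1729 ± 140 units in knock-out J2 and 70473 ± 18905 units in knock-out flow-through (SD, n = 3 each), a 40.8-fold difference. They were 1364 ± 367 units in wild-type P18 J2 and 59143 ± 13674 units in wild-type P18 flow-through (SD, n = 3 each), a 43.4-fold difference. Means of 16S were 2052 ± 484 units in knock-out J2 and 126686 ± 42047 units in knock-out flow-through (61.7-fold, SD, n = 3 each), and 1400 ± 408 units in wild-type P18 J2 and 72623 ± 16264 units in wild-type P18 flow-through (51.9-fold, SD, n = 3 each). In adult testis the same ratio was 11.5-fold for 12S and 5.02-fold for 16S, over 2 libraries in each fraction, and with J2 replicate 1 alone 29.1-fold for 12S and 37.3-fold for 16S. The mitochondrial mRNA sum was 2.06-fold lower in J2 in knock-out testis and 2.32-fold lower in wild-type P18 testis, and in adult testis it was 2.31-fold higher in J2 with overlapping libraries. That adult direction rested on J2 replicate 2, since J2 replicate 1 alone, at 2761 units, was 2.05-fold below the flow-through mean of 5656 units.

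Leaving out any 1 library of the groups compared ended none of the 4 P18 calls, with log2 differences between -6.14 and -5.14. The adult values depended on single libraries. The adult 12S call ended without J2 replicate 1 (log2 difference -2.84, limma adjusted p = 0.13) and without flow-through replicate 1 (-3.86, limma adjusted p = 0.071), and also when only the adult libraries were fitted (-3.85, limma adjusted p = 0.28). The adult 16S difference passed without J2 replicate 2 (-5.06, limma adjusted p = 0.0018) and was -1.27 without J2 replicate 1.

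The levels depended on how libraries were scaled. With libraries brought to a common total over the genes that are not mitochondrial, the median of all genes moved to 2.16 in knock-out, 2.74 in adult and 1.87 in wild-type P18 testis. On that scale 12S differed by -1.07 in knock-out, 0.75 in adult and -1.49 in wild-type P18 testis, and 16S by -1.68, 1.44 and -1.76 in the same order, none of them called by limma. In wild-type P18 testis 2562 of 9526 genes tested were then called higher in J2 and 13 lower, against 50 and 36 under the authors' scaling. Relative to the median of all genes, the common-total values of both rRNAs were between -3.84 and -3.23 in the P18 conditions. They were -1.98 for 12S and -1.30 for 16S in adult testis. Under the authors' scaling they were between -5.77 and -5.16 in the P18 conditions, and -3.90 and -3.22 in adult testis. Dividing a library by 1 factor moves its genes alike, apart from the 1 added before the log2. Lying below the median is therefore no separate check of the scaling. Under quantile normalization, which gives genes of equal rank equal values, 12S differed by 0.77 in knock-out and 1.49 in adult testis and by less than 0.01 in wild-type P18 testis, and 16S by 0.80, 2.95 and -0.53, again with no call by limma. In wild-type P18 testis 37 genes were called higher in J2 and 26 lower under quantile normalization. By rank the fractions were close: 12S was the 5th to 12th highest gene in J2 and the 11th or 12th in flow-through, and 16S the 2nd to 13th in J2 and the 9th to 12th in flow-through. As a share of all units, the rRNA sum was 0.325 to 6.37% in J2 and 0.405 to 3.38% in flow-through, and the fractions overlapped. In adult J2 the share of 12S was 0.318% in replicate 1 and 1.26% in replicate 2, against 0.412 and 0.380% in adult flow-through. The share of 16S was 0.378% and 5.11% in the same J2 libraries, against 0.916 and 0.320%. With replicate 1 alone, 12S was thus below both adult flow-through libraries and 16S lay between them.

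**Figure D4:**
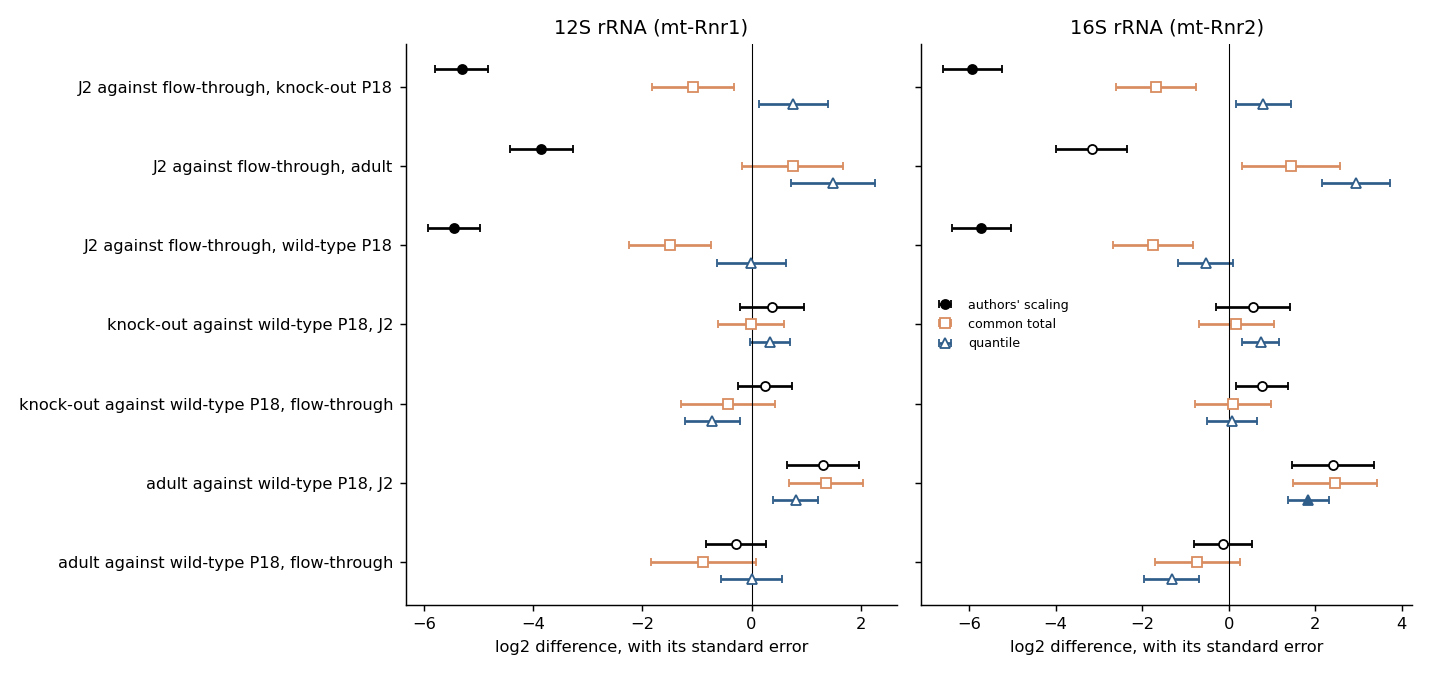
Log2 differences of 12S and 16S rRNA with their standard errors from limma, for each comparison under the authors' scaling (circles), a common total over genes that are not mitochondrial (squares) and quantile normalization (triangles). Filled symbols passed an adjusted p of 0.05. The J2 minus flow-through values move from between -5.93 and -3.17 under the authors' scaling to between -1.76 and 1.44 with a common total.

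Set in order of their group means, the 12S rRNA was lowest in wild-type P18 J2, followed by knock-out J2, adult J2, adult flow-through, wild-type P18 flow-through and knock-out flow-through. The 16S rRNA gave the same order, although its adult and wild-type P18 flow-through means were close, at 72331 and 72623 units. The place of adult J2 above knock-out J2 rested on adult J2 replicate 2. Adult J2 replicate 1, at 1630 units of 12S and 1937 units of 16S, lay below the knock-out J2 means of 1729 and 2052 units. For 12S the libraries of neighbouring groups overlapped at every step except between adult J2 and adult flow-through. For 16S they failed to overlap at 2 steps, the one between the fractions and the one between wild-type P18 and knock-out flow-through.

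The 16S to 12S ratio separated the fractions less than the rRNA to mRNA ratio. It was 0.958, 1.24 and 1.33 in knock-out J2, against 1.80, 1.60 and 1.96 in knock-out flow-through. It was 1.19 and 4.06 in adult J2, against 2.22 and 0.843 in adult flow-through. It was 1.08, 0.992 and 0.992 in wild-type P18 J2, against 1.22, 1.19 and 1.29 in wild-type P18 flow-through. Within each P18 condition every J2 library was below every flow-through library, whereas the adult libraries of the fractions overlapped and spread most.

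Over all conditions the log2 difference of this ratio, J2 minus flow-through, was -0.07 (exact permutation p = 0.853, lower in J2 in 7 of 8 code pairs). The adult part of that count depends on which libraries are paired, since the adult fractions overlapped. The log2 difference was -0.36 without adult J2 replicate 2. In knock-out testis it was -0.61 (1.53-fold lower in J2) and in wild-type P18 testis -0.27 (1.20-fold lower in J2), each with an exact permutation p = 0.1, the smallest possible. In adult testis it was 0.68, with no test, but -0.20 without J2 replicate 2. Its direction also turned without flow-through replicate 2. With the P18 conditions alone, chosen after seeing the data, it was -0.44, or 1.36-fold lower in J2 (exact permutation p = 0.005, the smallest possible). It was lower in J2 in 6 of 6 code pairs, as any pairing within these conditions would give. Per kilobase, the level of 16S was 0.579 to 0.805 times that of 12S in J2, with adult replicate 2 at 2.45, and 0.509 to 1.34 times in flow-through.

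The mitochondrial mRNAs can be set beside the rRNAs in the same fit, although the difference between the 2 kinds was not itself tested there. The J2 minus flow-through log2 difference of the 13 mRNAs had a median of -2.13 in knock-out, -0.23 in adult (-2.46 without adult J2 replicate 2) and -2.18 in wild-type P18 testis. Both rRNAs lay below all 13 mRNAs in knock-out testis, where mt-Atp8, a subunit of ATP synthase, was lowest at -4.93, and in adult testis, where mt-Nd1 was lowest at -2.17 (without J2 replicate 2, mt-Nd4 at -4.41, against -4.86 for 12S and -5.06 for 16S). In wild-type P18 testis 1 mRNA lay below them, mt-Nd4, a subunit of complex I, at -5.81. No mRNA was called by limma in knock-out or adult testis, where 0.357% and 0.315% of all genes tested were called in either direction. In wild-type P18 testis, where 0.903% of all genes tested were called, limma called 3 of 13. They were mt-Nd4 (adjusted p = 0.020), mt-Cytb, the cytochrome b of complex III (-4.58, adjusted p = 0.016), and mt-Nd1 (-3.00, adjusted p = 0.024). All 3 were lower in J2 under the authors' scaling, whereas with a common total none was called and mt-Nd1 stood at 0.95. Each call also ended without the filter on low values and when single wild-type libraries were left out. The mt-Nd4 call held only without J2 replicate 3 (-7.03, adjusted p = 0.0053), and adjusted p over the other omissions reached 0.093. The mt-Cytb call ended without J2 replicate 1 or 2 or flow-through replicate 2 or 3 (highest adjusted p = 0.071), and the mt-Nd1 call without J2 replicate 2 or any flow-through replicate (highest adjusted p = 0.096).

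The nearest mRNA gene downstream of the rRNAs, mt-Nd1, which encodes a core subunit of complex I, averaged 194 ± 44.9 units in knock-out J2 and 1342 ± 574 units in knock-out flow-through (SD, n = 3 each). In wild-type P18 testis it averaged 179 ± 80.0 units in J2 and 1346 ± 307 units in flow-through (SD, n = 3 each). Further along, mt-Co1 averaged 1735 ± 396 units in knock-out J2 and 1021 ± 145 units in knock-out flow-through (SD, n = 3 each). In wild-type P18 testis mt-Co1 averaged 1391 ± 579 units in J2 and 859 ± 248 units in flow-through (SD, n = 3 each). In adult testis mt-Co1 stood at 1816 and 17573 units in J2, against 305 and 1585 units in flow-through, and its log2 difference of 3.02 (1.38 without J2 replicate 2) was the highest of the 3 conditions. The fraction difference of mt-Co1 was not called by limma in any condition (adjusted p = 0.73 in knock-out, 0.31 in adult and 0.73 in wild-type P18 testis). The one mRNA of the light strand, mt-Nd6, a complex I subunit, stood at 130, 48.3 and 229 units in knock-out J2, against 27.3, 46.4 and 85.8 units in knock-out flow-through. In adult testis mt-Nd6 stood at 170 and 343 units in J2, against 48.0 and 23.0 units in flow-through, and in wild-type P18 testis at 11.8, 21.3 and 37.7 units in J2, against 31.7, 68.1 and 35.4 units in flow-through. It was not called by limma in any of the 3 conditions. The valine tRNA mt-Tv, between the rRNA genes, reached at most 24.9 units in any library.

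**Figure D5:**
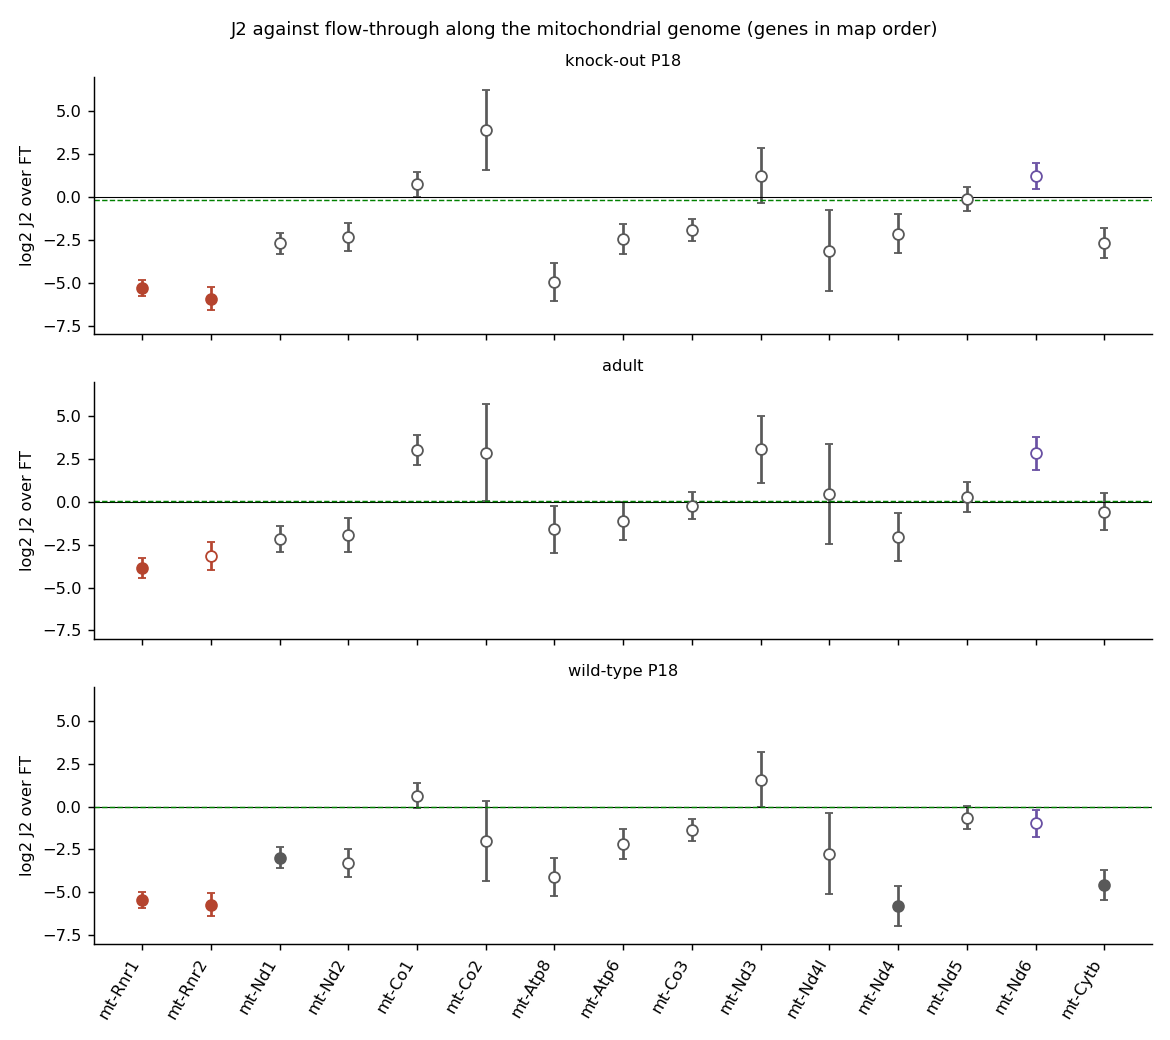
Log2 difference, J2 minus flow-through (FT), with its standard error from limma for the 2 rRNAs (red) and the 13 mRNAs in their order on the mitochondrial map, in knock-out P18, adult and wild-type P18 testis. The light-strand gene mt-Nd6 is purple, filled circles passed an adjusted p of 0.05, and the dashed green line is the median of all genes tested. The rRNAs lie below every mRNA except mt-Nd4 in wild-type P18 testis.

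The libraries were prepared strand-specifically, but the strand setting of the counting is not given in the sources used here, so reads from the rRNAs and from light-strand RNA antisense to them cannot be told apart. Sharing of reads with nuclear copies of mitochondrial sequence was not tested.

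Loss of Dicer, the RNase III enzyme that cuts double-stranded RNA into small RNAs, can be set against wild type within each fraction at P18. No difference of either rRNA passed the test. In J2, the knock-out minus wild-type log2 difference was 0.38 for 12S (SE 0.59, limma adjusted p = 0.97) and 0.57 for 16S (SE 0.85, limma adjusted p = 0.96), with overlapping libraries. In flow-through it was 0.24 for 12S (SE 0.49, limma adjusted p = 0.95) and 0.78 for 16S (SE 0.60, limma adjusted p = 0.87). The 12S differences changed sign under other scalings (common total -0.01 in J2 and -0.43 in flow-through, quantile -0.72 in flow-through). Limma called 0 of 6882 genes in J2 and 0 of 7141 in flow-through, that is 0% of each, with 440 and 436 genes at an unadjusted p under 0.05.

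In flow-through the 3 knock-out libraries of 16S were all above the 3 wild-type libraries, by 1.74-fold in the means, which was also so of 7.53% of the genes tested. Summed Sertoli cell markers (4 genes) were 35.5 to 55.2 units in knock-out flow-through, against 0 to 13.6 units in wild-type flow-through, with Amh at 0 in both groups. Summed germ cell markers were 320 to 745 units in knock-out flow-through, against 193 to 484 units in wild-type flow-through, and the part of either list in the result was not tested. The 16S to 12S ratio of flow-through was likewise higher in all knock-out libraries, 1.45-fold (log2 difference 0.53, exact permutation p = 0.1, the smallest possible for 3 against 3). In J2 the log2 difference of this ratio was 0.19, with overlap (exact permutation p = 0.4). The rRNA to mRNA ratio differed by -0.07 in J2 (exact permutation p = 1) and by 0.22 in flow-through (exact permutation p = 0.3), both with overlap. Whether the J2 minus flow-through difference depended on genotype was tested as an interaction, which was 0.14 for 12S (SE 0.68) and -0.21 for 16S (SE 0.95), with limma adjusted p = 1 for both. Limma called 0 of 9526 genes for that interaction, with 455 at an unadjusted p under 0.05.

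Adult and wild-type P18 testes were compared in the same way. In J2, the adult minus wild-type P18 log2 difference was 1.31 for 12S (SE 0.66, limma adjusted p = 0.44) and 2.41 for 16S (SE 0.95, limma adjusted p = 0.28), neither passing the test. Both adult J2 libraries were above all wild-type P18 J2 libraries for both rRNAs, as were 18.7% of the genes tested, and 5.07% were called higher. The size came mostly from adult replicate 2: without it the differences were 0.30 for 12S (limma adjusted p = 0.89) and 0.52 for 16S (limma adjusted p = 0.83). Without adult replicate 1, leaving replicate 2 alone and assumed to vary like the other groups, they were 2.32 for 12S (limma adjusted p = 0.096) and 4.31 for 16S (limma adjusted p = 4e-08). Summed germ cell markers were 2037 to 2311 units in adult J2, against 644 to 1465 units in wild-type P18 J2, and their part in the result was not tested. None of the 9 was at 0 throughout adult J2, whereas Prm1 and Acrv1, made in spermatids, were at 0 in all wild-type P18 J2 libraries. The list's other spermatid genes, Tnp1 and Prm2, were not at 0 throughout wild-type P18 J2. In whole testis, fewer cells of a type and less RNA per cell cannot be told apart.

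In flow-through the adult minus wild-type P18 difference was -0.29 for 12S (SE 0.55, limma adjusted p = 0.88) and -0.14 for 16S (SE 0.67, limma adjusted p = 0.96), with overlap, and 3.08% of 7141 genes were called higher. The rRNA to mRNA ratio differed by 0.14 in J2 and -0.11 in flow-through (exact permutation p = 0.9 for both), and so was within the spread of the libraries although adult J2 replicate 2 held far more of both kinds of RNA. The 16S to 12S ratio differed by 1.11 in J2 (exact permutation p = 0.1, the smallest possible, 0.22 without replicate 2) and by 0.16 in flow-through (exact permutation p = 0.8). The age by fraction interaction was 1.60 for 12S (SE 0.76, limma adjusted p = 0.92) and 2.55 for 16S (SE 1.06, limma adjusted p = 0.83), and it was 0.59 and 0.65 without adult J2 replicate 2. Limma called 0 of 9526 genes for it, with 514 at an unadjusted p under 0.05.

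The 2 rRNAs moved with each other from library to library in J2, and less surely in flow-through. Within J2, 16S rose with 12S over the 8 libraries (Pearson r = 0.99, permutation p = 1.5e-04, Spearman rho = 0.93, permutation p = 0.0022, with 6e-04 and 0.0089 after Benjamini-Hochberg adjustment over 4 relations). Without the 2 libraries farthest from the median of 12S, adult replicate 2 and wild-type P18 replicate 3, r was 0.94 (permutation p = 0.0083). In flow-through r was 0.73 (permutation p = 0.041, adjusted 0.071) and rho 0.64 (permutation p = 0.096, adjusted 0.19), and r was 0.35 without knock-out replicates 2 and 3, on which the relation rested. The mRNA sum on the rRNA sum gave r = 0.90 in J2 (permutation p = 0.053, rho 0.38 with p = 0.36) and r = 0.29 in flow-through (permutation p = 0.48, rho 0.31 with p = 0.46). Without the 2 farthest libraries these were 0.35 and 0.56. Values from 1 library share its scaling, which enters each of these correlations. The permutations exchanged all 8 libraries of a fraction without regard to condition, so differences between conditions enter them too.

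Among 359 genes with at least 10 units in all 16 libraries, those most like the rRNAs were ranked by the mean of their Pearson correlations with 12S and 16S on log2(units + 1). Over all libraries these were Gm23935, Gm24245 and Gm24270, with near-identical values and a mean r of 0.95 each, and mt-Nd1 and Mir6236 with 0.94 each, against 0.98 between the rRNAs. These 3 Gm genes stood at 45.4 to 79.6 units in the J2 group means and at 138427 to 193911 units in the flow-through group means for Gm23935, so the measure mostly followed the difference between fractions. After each fraction's mean was subtracted, the leading genes were mt-Nd5 (0.79), mt-Atp6 (0.73), mt-Co1 (0.72), the germ cell RNA helicase gene Ddx4 (0.63) and mt-Nd2 (0.62), against 0.95 between the rRNAs. Without adult J2 replicate 2 this second list was Cops3 (0.72), Vps35 (0.67), mt-Nd5 (0.63), Prpf8 (0.60) and Arl6ip1 (0.60), against 0.80 between the rRNAs, so only mt-Nd5 was in both. The first list then held Mir6240 in place of mt-Nd1. These correlations are descriptions over 16 libraries that share group and scaling.

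The nuclear genes whose products build and maintain these rRNAs did not pass the test between fractions. Of the small subunit proteins of the mitochondrial ribosome, which assemble on the 12S rRNA, 28 of 33 were tested and limma called none in any condition, beside 0.357%, 0.315% and 0.903% of all genes tested called in either direction in knock-out, adult and wild-type P18 testis. They had 5, 2 and 1 at an unadjusted p under 0.05 in the same order, where 11.5%, 6.64% and 13.9% of all genes tested had one. Their median J2 minus flow-through log2 difference was 0.80 in knock-out, 0.32 in adult and 0.91 in wild-type P18 testis. Of the large subunit proteins, which assemble on the 16S rRNA, 43 of 50 were tested and limma called none, with 7, 0 and 13 at an unadjusted p under 0.05 and medians of 0.57, 0.60 and 1.36 in the same order. The medians over all genes tested were -0.15, 0.05 and -0.05. Of mitochondrial transcription factors 6 of 9, of rRNA processing and modification enzymes 17 of 30 and of mitochondrial RNA decay factors 6 of 10 were tested, and limma called none of them between fractions. At an unadjusted p under 0.05 these lists held at most 2 genes in any condition, the most being 2 of 6 transcription factors and 2 of 17 processing and modification enzymes, both in wild-type P18 testis.

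Between genotypes within a fraction no gene of these lists was called by limma. Between adult and wild-type P18 testis, where 5.46% of all genes tested in J2 and 3.23% in flow-through were called in either direction, 1 gene of the lists was, in J2: Tfam, which encodes the mitochondrial transcription factor that also packages mitochondrial DNA. It stood at 86.3 and 73.4 units in adult J2, against 0.759, 0 and 0 units in wild-type P18 J2, and both adult libraries were above all others of that fraction. The log2 difference on log2(units + 1) was 6.06 (SE 1.27, limma adjusted p = 0.018), and the call ended without wild-type P18 J2 replicate 2 (limma adjusted p = 0.063) or replicate 3 (limma adjusted p = 0.069), or without the filter on low values (limma adjusted p = 0.095). In flow-through Tfam stood at 0 and 14.1 units in adult testis, against 0, 0.461 and 0 units in wild-type P18 testis.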

How the data were processed

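Testis RNA was divided by the J2 antibody and libraries were made with the strand-specific NuGEN Ovation SoLo kit and sequenced on a HiSeq instrument, per the labels' protocols. The submitters' processing notes name FastQC, Trimmomatic, Salmon, DESeq2 and mm10, with no versions or settings. The deposited table holds a signal per Ensembl gene, the authors' normalized counts, with 1 column per library. Symbols were matched to 35446 of 35920 gene IDs. Because values were not raw counts, limma 3.58.1 in R 4.3.3 (empirical Bayes with trend, two-sided) was run on log2(value + 1) over genes with at least 10 units in at least 2 libraries fitted, with Benjamini-Hochberg adjustment over all of them and a threshold of 0.05. J2 was compared with flow-through in a fit of all 16 libraries, and conditions in fits of the 8 libraries of a fraction. The fit was also run on simulated data with independent noise of 1 SD per gene in all libraries. That setting has no difference in spread between fractions or libraries, and no result here rests on it. Ratios within a library were compared by exact permutation tests of mean log2 ratios (Python 3.11.15, scipy 1.17.1).

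Reads per library are estimates, since most values were not whole multiples of 1 read, so no counting intervals are given. Named genes were the rRNAs, other mitochondrial genes, called members of 5 lists of nuclear genes, and the 5 genes most alike under each measure. A few others, Dicer1 and the tissue markers among them, serve as checks of the samples. The members and lists were chosen with earlier results of these data known. Alternatives were the pseudocount, the filter, the scaling, the libraries fitted, a replicate block and omission of each library. Adult means, adult mRNA differences and the likeness ranking without adult J2 replicate 2 were added after seeing the data.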

Additional observations from a re-analysis of the deposited data

How the results depend on the processing

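A pseudocount of 10 and a filter of 50 units changed no call and no direction of the 22 limma differences refitted under each. Without a filter, the rRNA results kept their calls, and those of mt-Nd4, mt-Cytb, mt-Nd1 and Tfam ended. With a common total over genes that are not mitochondrial, J2 minus flow-through for 12S was -1.07 in knock-out, 0.75 in adult and -1.49 in wild-type P18 testis, and for 16S -1.68, 1.44 and -1.76. The mt-Nd1 difference in wild-type P18 testis became 0.95, the 16S genotype interaction 0.079, and the knock-out minus wild-type difference of 12S -0.0104 in J2 and -0.43 in flow-through. With quantile normalization the J2 minus flow-through values were 0.77, 1.49 and -0.0037 for 12S and 0.80, 2.95 and -0.53 for 16S in the same order. The 16S genotype interaction was then 1.34, the knock-out minus wild-type difference of 12S in flow-through -0.72, and the adult minus wild-type P18 difference of 16S in J2 1.84 (limma adjusted p = 0.039). Fitting only the adult libraries ended the adult 12S call (-3.85), where fewer genes and libraries entered. The J2 minus flow-through difference of the log2 16S to 12S ratio over all conditions was 0.11 from summed values, and -0.44 with the P18 conditions alone. With the mean of logs in place of the mRNA sum, the rRNA to mRNA ratio of adult minus wild-type P18 testis was -0.0207 in J2 and 0.20 in flow-through. Without the highest mRNA of each library, the ratio between fractions was -3.41 over all conditions. The cause of these changes was not tested.

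Codes in the table's header are shared by 1 J2 and 1 flow-through library each. Deviations of same-code libraries correlated between -0.03 and 0.03, so the codes were not treated as pairs. With the code as a replicate block the 12S differences had limma adjusted p = 5.6e-05 in knock-out, 0.011 in adult and 4.3e-05 in wild-type P18 testis, no call of an rRNA result changed, and mt-Nd1 in wild-type P18 testis missed the threshold (-3.00, limma adjusted p = 0.060). Genes called in the block fit numbered 7 higher and 17 lower in wild-type P18 testis, against 50 and 36 without it.

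Leaving out 1 library at a time, of 249 values 213 kept their direction and their side of the threshold. J2 minus flow-through in adult testis was -4.86 to -2.84 for 12S and -5.06 to -1.27 for 16S. The genotype interaction was -0.11 to 0.33 for 12S and -0.48 to 0.0414 for 16S. Adult minus wild-type P18 differences of 16S were 0.52 to 4.31 in J2 and -0.83 to 0.55 in flow-through. The 16S to 12S ratio gave -0.36 to 0.23 between fractions over all conditions, -0.20 to 1.57 between fractions in adult testis and -0.54 to 0.86 for adult minus wild-type P18 flow-through. The rRNA to mRNA ratio gave -4.81 to -3.99 between fractions over all conditions, with the smallest possible p each time, -0.54 to 0.34 for knock-out minus wild-type J2, and -0.33 to 0.54 in J2 and -1.34 to 1.13 in flow-through for adult minus wild-type P18. The same ratio between fractions in adult testis was -5.37 to -2.91. The mRNA sum rested on about 520 reads in knock-out flow-through replicate 1, the fewest of any library.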
